A study of Drosophila melanogaster with 2 samples.

Results

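The wild type library of sorted type II neuroblast lineages was described on its own, over every gene with an estimate of status OK and a level of at least 1 FPKM, a fragment count divided by transcript length and by the size of the library. These criteria were met by 7067 of the 14210 genes in the table, or 49.7%. Members were therefore selected by their own level, and the number above the threshold is a description. The genes just inside it were CG6287 at 1.0016 FPKM, CG34424 at 1.0027 and CG6785 at 1.0028, and those just outside were CG31688 at 0.999, CG33514 at 0.998 and the mesoderm factor gene twi at 0.995.

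The series held 2 libraries, and only the wild type one was analysed here. Its cells came from brains of Drosophila melanogaster larvae late in the third instar, of the w1118 strain, in which worniu-Gal4 with ase-Gal80 drove the membrane marker UAS-CD8::GFP. Larvae were raised at 25 °C for 5 days after a 24 h egg lay, and cells with strong GFP were sorted. The ase-Gal80 repressor is known to keep Gal4 off in cells that express asense, such as type I neuroblasts. Per the labels the sort held neuroblasts (NB), intermediate neural progenitors (INP) and ganglion mother cells without neurons. There was 1 library, so no value has a replicate check, and no test was possible. The bounds given in brackets after a level were deposited with it and cover counting error only. Loci of 2970 members (42.0%) overlap another gene, and reads of overlapping genes may have been split between them.

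Type II neuroblasts are neural stem cells of the larval brain that divide asymmetrically, keeping 1 neuroblast and giving off a daughter that matures into an INP. An INP divides several more times, and each division yields a ganglion mother cell that divides into neurons or glia. Notch signalling maintains the stem cell, whereas cell fate determinants carried by the adaptor protein Miranda are passed to the daughter. Such cells grow and divide repeatedly, which calls on ribosome production, DNA replication and mitosis.

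Levels spanned more than 4 orders of magnitude. The median member stood at 16.4 FPKM and the middle 50% of members lay between 6.22 and 45.8 FPKM. At least 100 FPKM was reached by 938 genes (13.3% of members) and at least 1000 FPKM by 139 genes (1.97%). The sum of all member levels was concentrated in few genes. The 10 most abundant genes held 16.6% of the summed FPKM, the 100 most abundant held 60.8%, and 65 genes held 50% of it. The lower 50% of members together held 2.52%.

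**Figure D1:**
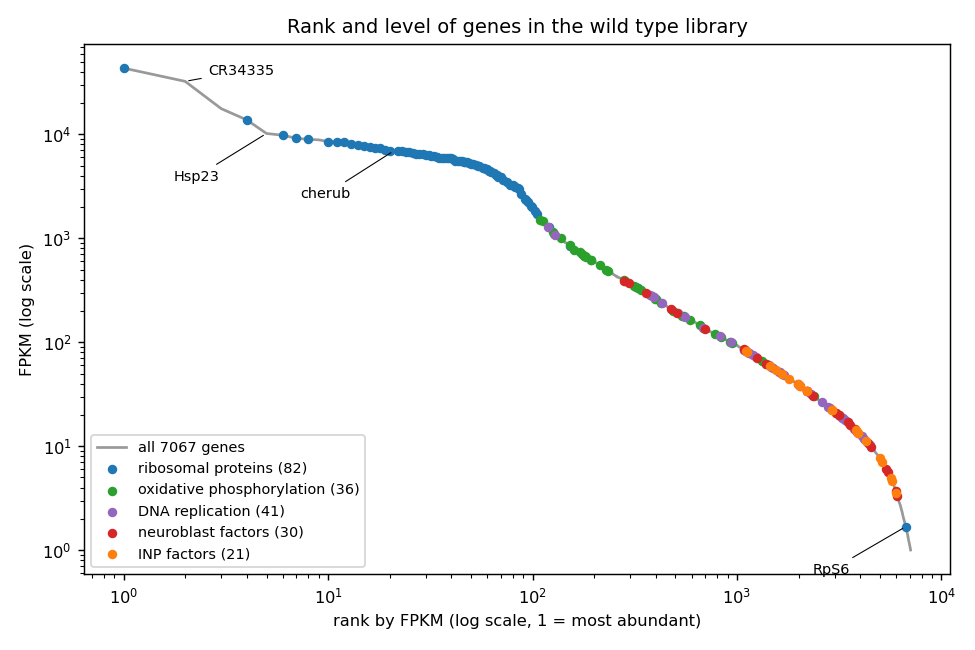
Rank of each gene by FPKM (x axis, log scale) against its FPKM (y axis, log scale) in the wild type library; the grey line is all 7067 members and coloured points are members of 5 gene lists. Ribosomal protein genes fill most of the ranks down to 100 and RpS6 stands apart at 1.68 FPKM, while the highest neuroblast factor is at 391 FPKM.

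Ribosomal protein genes made up most of the head of the ranking. All 82 listed genes of the cytosolic ribosome were members, they filled 76 of the 100 highest ranks, and together they held 47.6% of the summed FPKM. Their median level was 5400 FPKM, against 16.4 FPKM over all members and 81 of the 82 were in the highest 10% of members. A separate list held 10 paralogs of ribosomal protein genes, of which 5 were members, with a median of 11.0 FPKM, and 5 were listed at 0. The lists were made with earlier results of these data known, so the counts over the 82 genes depend on this division. RpL41 (2R from 20790940 to 20791452), which encodes a very short peptide of the large subunit, was the most abundant gene of the library at 43461 FPKM (43213 to 43708), or 4.42% of the summed FPKM. RpL39 followed within the family at 13794 FPKM (13648 to 13940), then RpL29 at 9811 and RpS29 at 9182 FPKM. Other ribosomal protein genes among the 30 highest included RpL35, RpS23, RpL10, RpS25, RpL27A, RpLP1, RpL32, RpL15, RpS27A, RpS13, RpL37A, RpL31, RpL21, RpLP2, RpL10Ab, RpL36, RpL14, RpS16 and RpL40, which ran from 8962 down to 6397 FPKM. RpS27A and RpL40 encode ribosomal proteins made as fusions to ubiquitin. The loci of RpL41, RpL29, RpS27A, RpL31 and RpL10Ab overlap other genes.

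At the low end of the family, RpS15Ab stood at 330 FPKM (317 to 344) and RpS6 at 1.68 FPKM (0.929 to 2.43). RpS6 (X from 7793653 to 7795362) encodes the small subunit protein that is phosphorylated by S6 kinase downstream of TOR. Its level rested on 20 implied reads, its rank was 6695, and its locus overlapped no other gene of the table. Every other gene among the 82, which leave out the separate list of paralogs, was at least 196-fold more abundant. Whether the RpS6 value reflects its transcript or how reads were assigned to this gene was not tested. Elsewhere in the table, all 13 genes of the mitochondrial genome were listed at 0, as were 107 of 111 replication-dependent histone genes. Of these histone genes, 3 were above 0 but under 1 FPKM and His2B:CG17949 was at 31.4 FPKM. No read was implied on the mitochondrial genome, nor on any of the 85 genes of the sequence named U or the 7 of YHet. Whether reads on these sequences were counted at all was not tested. The RNA was enriched for polyA before sequencing, and the part of this step in the histone zeros was not tested.

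Several other genes shared the head of the ranking. CR34335 (X from 3439895 to 3440143) stood in rank 2 at 32379 FPKM (32111 to 32648), and pncr002:3R (3R from 2525274 to 2525886), now named lncRNA:CR33938, in rank 3 at 17705 FPKM (17587 to 17822). CR43283 (3R from 7073825 to 7081845) was at 6952 FPKM (6924 to 6981), in rank 21. The current symbol of CR43283 is cherub, a long non-coding RNA known for its unequal distribution when larval neural stem cells divide. These 3 genes held 5.81% of the summed FPKM. The remaining genes in the 30 highest were the small heat shock protein genes Hsp23 and Hsp26.

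The ranking changed when reads in place of FPKM were compared. Reads were computed from the width of each deposited interval, and they do not correct for transcript length. By this measure cherub was first, with 237353 implied reads or 2.35% of those on members. RpL41 followed with 123241, Hsp23 with 109884, Hsp26 with 90818 and pncr002:3R with 90817, while CR34335 was in rank 11 with 58345. Ribosomal protein genes took 31.5% of the reads, against 47.6% of the summed FPKM. Of the 30 genes highest by FPKM, 18 were also among the 30 with the most reads, and the 10 genes with the most reads held 9.62% of them.

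**Figure D2:**
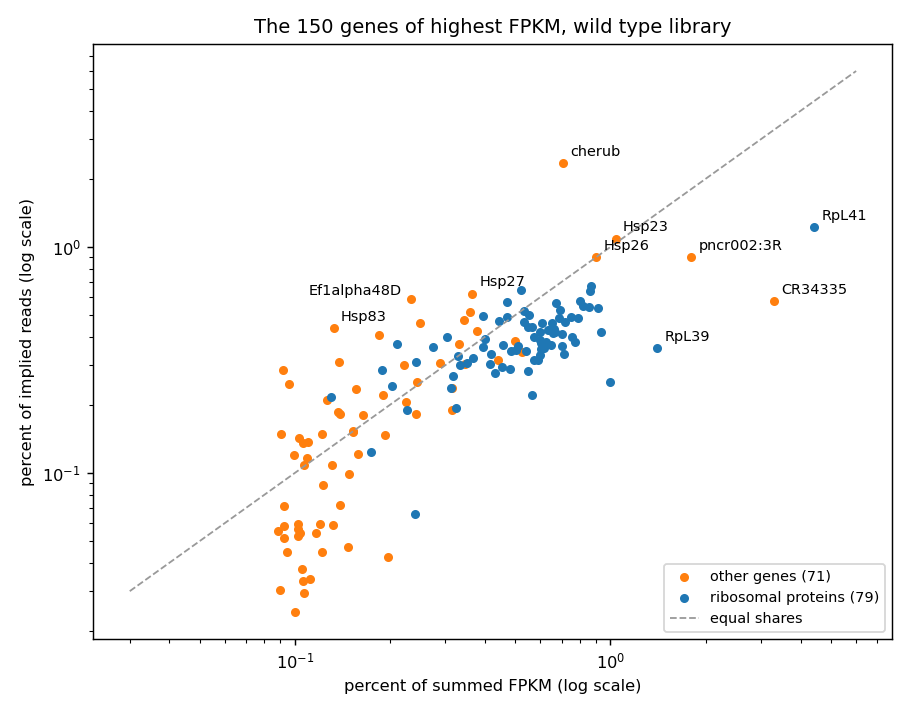
Share of the summed FPKM (x axis, percent, log scale) against share of the implied reads (y axis, percent, log scale) for the genes of highest FPKM in the wild type library, with ribosomal protein genes in blue and other genes in orange. The dashed line marks equal shares; cherub lies above it at 0.708% of the FPKM and 2.35% of the reads, and RpL41 and CR34335 lie below it.

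Short transcripts reached higher levels among protein-coding members. The 111 members with a median annotated transcript length under 500 bases had a median of 144 FPKM, whereas the 935 members of at least 4000 bases had a median of 10.1 FPKM. Without ribosomal protein genes the short class had a median of 128 FPKM over 106 members. The median number of implied reads did not follow the same order, at 522 in the short class and 552 in the long one. Estimates for very short transcripts depend on how the authors' software set their effective length, and 65 members had a locus under 500 bp. Transcript lengths were taken by gene identifier from the BDGP6 annotation, which is not the one used to make the table.

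Beyond the coding genes, 63 of the 394 genes annotated as non-coding RNA in BDGP6 were members (15.99%), compared with 6660 of 13141 protein-coding genes (50.7%). Their median level was 18.3 FPKM, close to the 16.5 FPKM of the protein-coding members. After pncr002:3R and cherub, the most abundant was alphagamma-element:CR32865, a heat-inducible RNA of the Hsp70 region, at 2374 FPKM (rank 91). Hsromega, the heat-inducible nuclear RNA that organises omega speckles, was at 523 FPKM. CR42491 was at 367 FPKM with a locus that overlaps another gene. roX1, an RNA of the male dosage compensation complex, was at 321 FPKM and roX2 at 44.3 FPKM. These last 4 were chosen after their values were seen.

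The markers of neural stem cells and their progenitors were present, as the cell type label states. Of 31 neuroblast factors, 30 were members, against 49.7% of all genes, with a median of 32.1 FPKM. The 5 pan-neuroblast markers wor, mira, dpn, insc and klu stood at 85.2 FPKM (81.5 to 88.8), 192 (188 to 197), 61.97 (58.2 to 65.7), 33.8 (31.96 to 35.6) and 19.8 (18.4 to 21.1). The worniu (wor) level bears on the driver, whose Gal4 carries the control region of this gene. Among the type II markers, the Sp-family factor gene Sp1 was at 62.02 FPKM, the orphan receptor gene tll at 17.0 FPKM (15.2 to 18.8), the ETS factor gene pnt at 13.8 (12.5 to 15.2) and btd at 10.8 (9.52 to 12.1). Except for Sp1, these lay near the median member or below it.

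The highest neuroblast factors were an RNA-binding protein gene, Notch target genes and a temporal factor gene, while other genes of these kinds stood far lower. CG17838, the gene of the RNA-binding protein Syncrip (Syp) that marks older neuroblasts, was highest at 391 FPKM (383 to 399) with a locus that overlaps another. The Notch target genes HLHmgamma at 373 FPKM (361 to 385) and E(spl), also called m8, at 298 (286 to 311) came next. The intervals of Syp and HLHmgamma overlap, and that of E(spl) lay below both. The zinc-finger temporal factor gene cas was at 210 FPKM (206 to 215). In contrast, Imp, whose protein marks young neuroblasts, was at 3.71 FPKM (3.14 to 4.27). The temporal factor gene svp was at 6.06 and the zinc-finger gene chinmo at 14.5 FPKM. Thus Syp and Imp, which are known to oppose each other, were at rank 281 and rank 5983.

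Other Notch-responsive bHLH genes of the list were spread over a wide range. HLHmbeta was at 135 FPKM, HLHm7 at 71.0, HLHm3 at 3.32 (2.36 to 4.27) and HLHm5 at 0.767 FPKM (0.225 to 1.31), the only list gene below the threshold. The receptor gene N itself was at 20.8 FPKM. Among genes that restrain self-renewal, the translational repressor gene brat was at 83.4 FPKM and the homeobox gene pros at 37.997, with a locus that overlaps another. The growth regulator dm (Myc) was at 20.9 FPKM, Cyclin E (CycE) at 30.6, the proneural genes ase at 39.4 and l(1)sc at 19.8, grh at 33.6, and the Snail-family genes sna at 15.98 and esg at 5.58. The homeobox gene Six4 was at 9.91 FPKM. Neighbours such as Sp1 and dpn, at 62.02 and 61.97 FPKM, did not differ beyond their intervals.

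INP factors ran from 0 to 82.3 FPKM. Of 26 genes, 21 were members (80.8%, against 49.7% of all genes). The median of these was 22.5 FPKM, and none was in the highest 10% of members, which begins at 133 FPKM. INPs are known to express a series of temporal factors. D, which comes first, was at 82.3 FPKM (79.1 to 85.5), grh, which follows, at 33.6 (31.6 to 35.6), and ey, which comes last of these, at 4.95 (4.12 to 5.78). The 3 intervals lay apart. D and the bHLH gene tap, at 81.4 FPKM (77.2 to 85.6), had overlapping intervals at the top of the list. In bulk RNA, fewer cells of a type and less RNA per cell cannot be told apart.

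The factors that commit or restrict INPs lay between these extremes. The PRDM gene ham was at 49.999 FPKM (47.8 to 52.1), erm at 44.7 (42.4 to 47.1), and opa at 22.5 (20.8 to 24.2). ase, which is expressed in INPs but not in type II neuroblasts, was at 39.4 FPKM. The homeobox genes scro and Optix were at 59.4 and 54.1 FPKM, hbn at 22.50, Dll at 22.4, and ap, Rx and bsh at 7.61, 4.57 and 3.52. The forkhead genes slp2 and slp1 were at 14.2 and 13.5 FPKM, run at 13.5, bi at 11.3 and Oaz at 7.04. Listed below the threshold were toy, the second fly Pax6 gene, at 0.786 FPKM, Lim1 at 0.614 and oc at 0.259, and fd59A and ems were listed at 0.

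**Figure D3:**
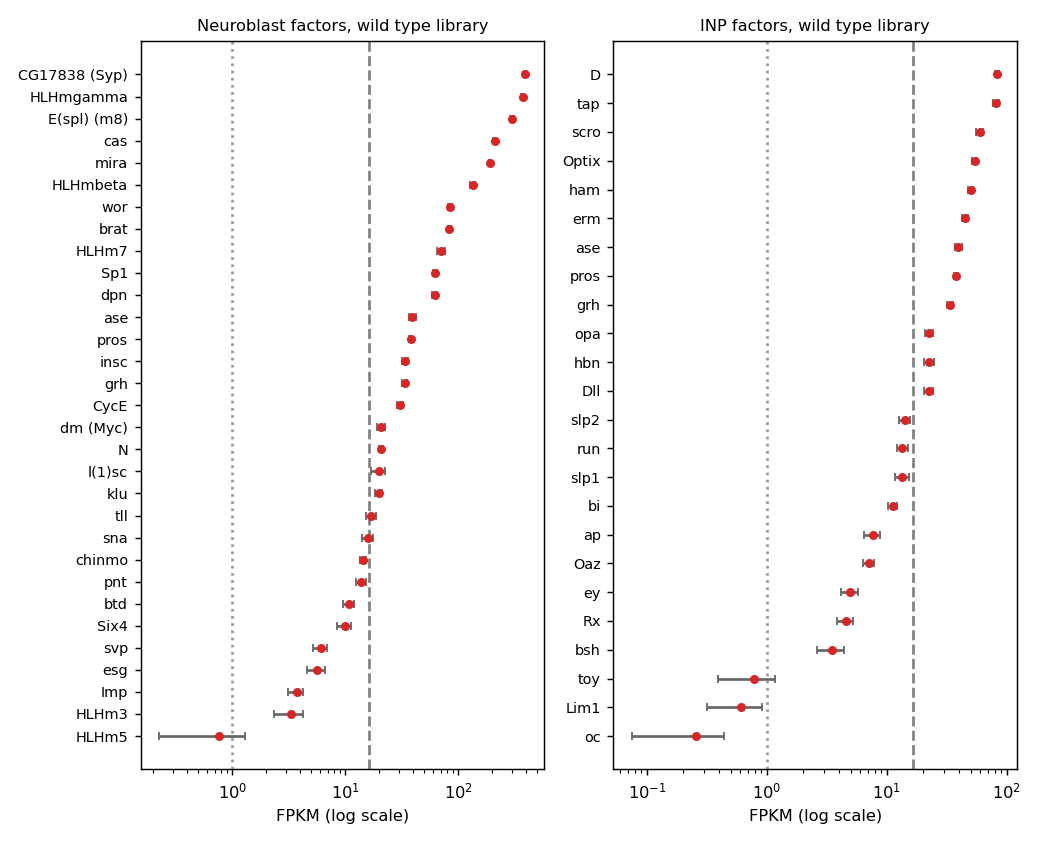
FPKM (x axes, log scale) of neuroblast factors (left) and INP factors (right) above 0 in the wild type library, with the deposited bounds as bars; the dotted line is the threshold of 1 FPKM and the dashed line the median member of 16.4 FPKM. Syp (CG17838) and 2 Notch targets lead the left panel, and D and tap lead the right.

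All 28 genes of asymmetric division were members, with a median of 38.3 FPKM. Ggamma1, a subunit of the heterotrimeric G protein that sets spindle orientation, was highest at 511 FPKM, followed by the myosin light chain gene sqh at 226, mira at 192 and the kinase gene polo at 158 FPKM. Lowest were the kinesin gene Khc-73 at 5.14 FPKM and the G protein regulator gene loco at 5.53. Basal determinants and their partners, named after their values were seen, were at 100.4 FPKM for stau, 60.6 for numb and 38.7 for pon. Among apical genes, chosen likewise, G-ialpha65A was at 85.5 FPKM, insc at 33.8, mud at 32.8, par-6 at 23.8, aPKC at 20.5, baz at 12.7 and raps (pins) at 9.12, so the levels of the apical and basal genes overlapped.

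Of 32 Notch pathway genes, 29 were members with a median of 20.8 FPKM. Targets led the list: HLHmgamma, E(spl) and HLHmbeta as above, with the Bearded-family gene malpha at 168 FPKM (159 to 178). The receptor N at 20.8 FPKM and its ligand gene Dl at 13.3 were lower, and the DNA-binding factor gene Su(H) was at 5.45. The glycosyltransferase gene fng was at 1.61 FPKM (1.02 to 2.19). The second ligand gene, Ser, and m1 were listed at 0. The 4 subunit genes of gamma-secretase, which cleaves the receptor, ran from 31.4 FPKM for nct to 109 for aph-1.

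Lists of the cell cycle had medians above that of all members. Of 32 cyclin, Cdk and regulator genes, 31 were members with a median of 36.7 FPKM. The mitotic kinase gene cdc2 (Cdk1) was at 425 FPKM (411 to 438), CycA at 160, CycC, a partner of the transcriptional kinase Cdk8, at 105 and CycB at 102. The lowest members were twe, the germline Cdc25 phosphatase, at 3.48 FPKM (2.67 to 4.29) and the Cdk1 inhibitory kinase gene Myt1 at 6.65, and CycJ was just under the threshold at 0.983. The Cdc25 phosphatase gene of somatic cells, stg, was at 53.5 FPKM, 15.4-fold above twe (interval 12.2 to 19.5). CycB was 1.87-fold above CycB3 (1.75 to 1.99), and E2f was 1.10-fold above E2f2 (1.02 to 1.19).

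DNA replication genes were higher. Of 42 genes, 41 were members, with a median of 58.3 FPKM, and 9 were in the highest 10%. Nucleotide and clamp genes led: dUTPase, which keeps uracil out of DNA, was at 1287 FPKM (1262 to 1311) and mus209, the gene of the sliding clamp PCNA, at 1076 (1056 to 1096). RPA2 of the single-strand binding complex was at 284 FPKM and the ribonucleotide reductase gene RnrS at 277. The lowest members were the polymerase genes DNApol-alpha73 at 10.2 FPKM and DNApol-epsilon at 11.8, whereas DNApol-alpha50 was at 51.4, near the list median. The remaining gene, lat (Orc3), had 24.8 FPKM with a status other than OK. The 6 MCM helicase genes ran from 48.5 FPKM for Mcm6 to 176 for Mcm7, and the 4 genes of the polymerase alpha primase from 10.2 to 51.4 FPKM.

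All 35 mitosis genes were members, with a median of 40.3 FPKM. The spindle checkpoint genes mad2 and Bub3 led at 319 and 274 FPKM, then ial, the Aurora B kinase gene, at 239 and borr, a partner of that kinase in the chromosomal passenger complex, at 178. The checkpoint kinase gene Bub1 was at 5.40 FPKM (4.70 to 6.11) and the formin gene dia at 5.54 (4.86 to 6.21), which overlap. The loci of mad2, Bub3 and borr overlap other genes.

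Translation factors followed the ribosome. Of 37 genes, 33 were members with a median of 187 FPKM, and 19 were in the highest 10%. eIF-5A, which promotes elongation, was at 5163 FPKM (5107 to 5218), Tctp at 3246, the elongation factor gene Ef1alpha48D at 2288 and its exchange factor gene Ef1beta at 1502. The lowest members were Ef1alpha100E at 6.46 FPKM and eIF5B at 28. The cap-binding protein was covered by eIF-4E at 413 FPKM, whereas its relatives eIF4E-3, eIF4E-4, eIF4E-5 and eIF4E-7 were listed at 0. All 24 tRNA synthetase genes were members at a much lower median of 27.1 FPKM. The lysine enzyme gene Aats-lys was at 93.04 FPKM, Aats-thr at 78.7, CG17259 (SerRS, added to the list after its value was seen) at 62.7 and Aats-asp at 56.6. Aats-met, whose current name marks a mitochondrial enzyme, was at 2.66 FPKM and Aats-cys at 4.998. The nucleolar list had all 32 genes as members, with a median of 43.4 FPKM. The histone chaperone family gene CG7911 (Nph) was at 1559 FPKM, the transcription coactivator gene Ssb-c31a at 643, and the snoRNP genes Nop60B and Nop56 at 160 and 157. CG12301 was at 4.81 FPKM and CG13185 at 5.43.

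Respiratory chain genes stood far above those of glycolysis. Of 38 oxidative phosphorylation genes, 36 were members with a median of 392 FPKM, and 30 were in the highest 10%. CG1746, the c ring subunit of ATP synthase, was at 1506 FPKM (1482 to 1530), the cytochrome oxidase genes cype and CoVIII at 1452 and 1099, and sun, the epsilon subunit of ATP synthase, at 1148. The lowest members were the complex I genes ND75 at 30.1 FPKM and CG1970 at 66.3. CG11913 and the testis cytochrome c gene Cyt-c-d were listed at 0.

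Of 20 glycolysis and sugar genes, 17 were members, with a median of 32.0 FPKM. Gapdh2 was at 194 FPKM (187 to 201), Gapdh1 at 158, enolase (Eno) at 147 and the mutase gene Pglym78 at 93.04. The committed-step enzyme gene Pfk was at 6.16 FPKM (5.34 to 6.98) and the sugar transporter gene sut1 at 2.02. Hex-C and the trehalose synthesis gene Tps1 were listed at 0, and the glucose transporter gene Glut1 was at 0.417 FPKM. Lactate dehydrogenase (ImpL3) was at 6.48 FPKM. All 23 genes of the tricarboxylic acid cycle and its feeders were members, with a median of 47.2 FPKM. The membrane anchors of succinate dehydrogenase, SdhC and CG10219 (SdhD), were at 317 and 209 FPKM, the pyruvate dehydrogenase gene CG11876 at 117 and Scsalpha at 100.4. CG5261 at 17.7 FPKM and Sucb at 19.4 were the lowest.

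Biosynthetic enzymes were near the median member. Of 24 nucleotide and one-carbon genes, 22 were members with a median of 14.7 FPKM. awd, the nucleoside diphosphate kinase gene, stood at 4309 FPKM (4261 to 4357) with a locus that overlaps another, while Sam-S and Ts were at 106 and 84.6. The lowest members were Gs2 at 1.47 FPKM and pug at 2.23, and CG6415 and Prat2 were listed at 0. Of 18 lipid genes, 15 were members with a median of 13.9 FPKM. CG8498 (Acbp1) was at 51.8 FPKM, desat1 at 35.6, ATPCL at 30.3 and the lipid droplet gene Lsd-2 at 28.5, down to mdy at 1.91 and Cct2 at 1.54, and bgm, Dbi and Lip4 were listed at 0.

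Housekeeping assemblies were abundant. All 32 RNA processing genes were members with a median of 288 FPKM, led by the Sm ring genes SmG at 1293 FPKM, SmE at 1005 and SmF at 928 and by the polyA-binding protein gene pAbp at 663, and ending with vir at 10.5 and ps at 7.0. Of 35 proteasome genes, 34 were members with a median of 177 FPKM. The core subunit genes Prosbeta3, Prosbeta2, Pros26 and Pros25 were at 637, 586, 558 and 555 FPKM, and Rpn1 of the regulatory particle was at 38.4. Prosalpha1 was the lowest at 6.14 FPKM (4.64 to 7.64), and its neighbour CG30382, named Prosalpha1R in the RefSeq gene table, was listed at 0, so the division of reads between such copies is uncertain. Of 26 cytoskeleton genes, 23 were members with a median of 226 FPKM. The cofilin gene tsr was at 3086 FPKM, betaTub56D at 2452, the profilin gene chic at 1863 and alphaTub84B at 1817, down to betaTub60D at 27.9 and Map205 at 26.5. Arpc3B, Tm2 and alphaTub85E were listed at 0.

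The chromatin list was led by transcripts of an HMG box gene, histone variant genes and Df31. Of 35 genes, 34 were members with a median of 120 FPKM. The HMG box gene HmgD was at 3518 FPKM (3487 to 3549), the H2A variant gene His2Av at 3388, Df31 at 3382 and the H4 replacement gene His4r at 3084. The HmgD interval lay above those of His2Av and Df31, which overlap. Bap170 at 16.4 FPKM and polybromo at 19.2 were lowest, and both encode subunits of the PBAP form of the SWI/SNF remodelling complex. The germline linker histone gene CG3509 (BigH1) was listed at 0.

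Chaperone and stress genes ranged widely. Of 34 genes, 33 were members with a median of 115.35 FPKM, which fell on the constitutive chaperone gene Gp93, and 12 were in the highest 10%. The small heat shock protein genes Hsp23 (3L from 9374986 to 9375865), Hsp26 (3L from 9369518 to 9370527), Hsp27 (3L from 9377165 to 9378382) and Hsp22 lie close together on 3L. They were at 10209.8 FPKM (10148 to 10271), 8862 (8803 to 8920), 3588 (3560 to 3617) and 2401 (2371 to 2431), and together held 2.55% of the summed FPKM and 2.86% of the reads. Hsp68, an inducible chaperone, was at 692 FPKM, and the alphagamma-element and Hsromega RNAs were at 2374 and 523 FPKM. The inducible Hsp70 genes were lower, from 7.74 FPKM for Hsp70Aa to 66.8 for Hsp70Bb over 6 genes, and reads of these near-identical copies may have been split. The stress genes kay (Fos) and Gadd45 were the lowest members at 3.53 and 2.73 FPKM, and Hsc70-1 was listed at 0. Whether handling of the tissue moved these levels was not tested.

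**Figure D4:**
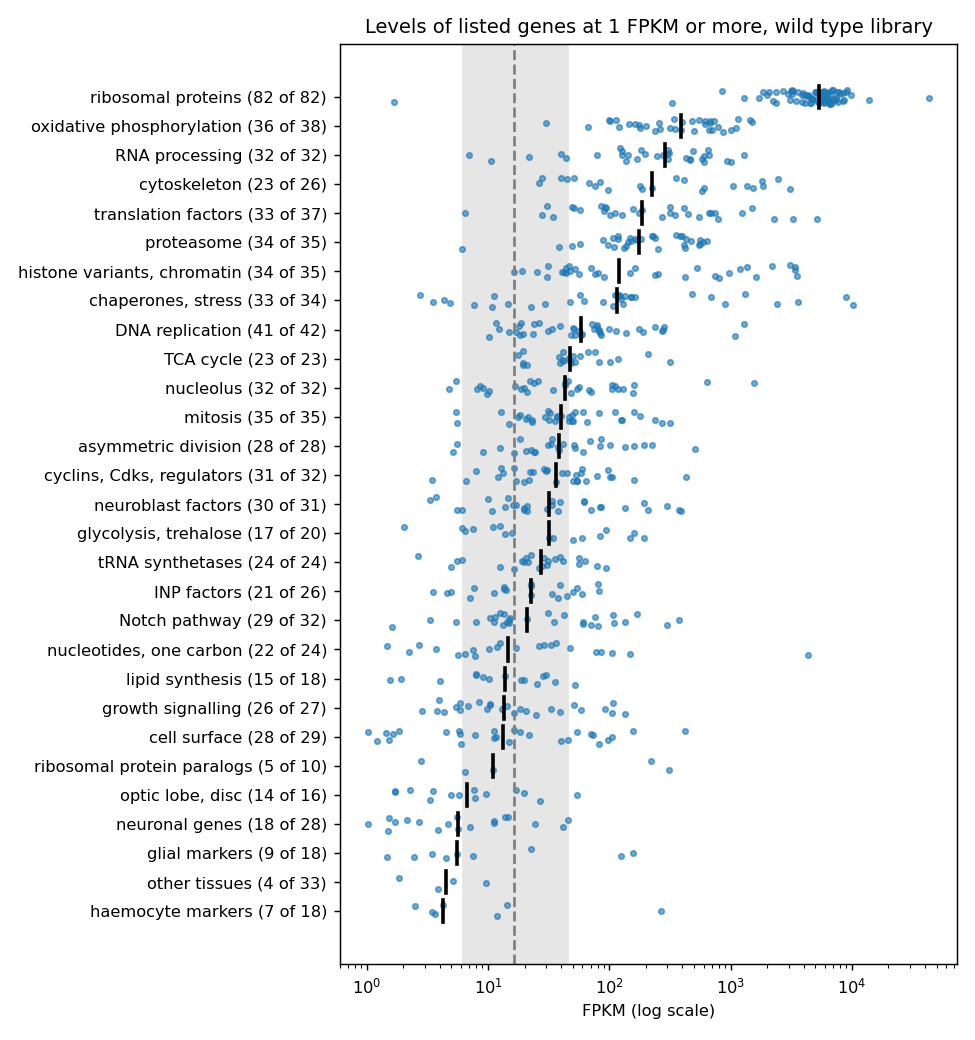
FPKM (x axis, log scale) of the members of 29 gene lists in the wild type library, 1 point per gene, with the list median as a black bar and the number of members out of listed genes in brackets. The grey band spans the middle 50% of all members, 6.22 to 45.8 FPKM, and the dashed line is their median; the ribosomal protein list has the highest median and the haemocyte list the lowest.

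Growth signalling genes were at the level of the median member. Of 27 genes, 26 were members with a median of 13.7 FPKM. Ras85D was at 135 FPKM, the amino acid transporter gene path at 108, the ERK gene rl at 105 and Thor (4E-BP) at 91.8, while the receptor gene Egfr was at 3.80 and foxo at 2.86. Of 29 cell surface genes, 28 were members with a median of 13.3 FPKM. The tetraspanin gene Tsp42Ee was at 421 FPKM, the sodium pump genes nrv2 and Atpalpha at 155.8 and 106, and the adhesion gene Nrt at 98.02. Con at 1.22 FPKM and kirre at 1.02 were the lowest.

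Most neuronal genes stood below the median member in a sort labelled as free of neurons, while 3 stood above its 16.4 FPKM. The part of neurons in these values was not tested. Of 28 genes, 18 were members (64.3%, against 49.7% of all genes), with a median of 5.61 FPKM, and none was in the highest 10%. The highest were the adhesion gene Nrg at 45.4 FPKM (43.5 to 47.3), the RNA-binding protein gene elav at 41.3 (39.4 to 43.3), nerfin-1 at 24.3 and chinmo at 14.5. The gene chinmo is also given above among the neuroblast factors, and the loci of Nrg and elav overlap other genes. The Notch target gene of newborn neurons, Hey, was at 11.2 FPKM. Of genes of mature neurons, n-syb was at 3.86 FPKM, brp at 1.02 (0.813 to 1.23), VGlut at 0.940, Gad1 at 0.866, Syt1 at 0.578 and Cha (ChAT) at 0.538. The ligand gene jeb was at 1.49 FPKM. para, VAChT, ab and eve were listed at 0.

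Marker lists of other cell types differed in how many of their genes were members. Of 18 glial genes, 9 were members, close to the 49.7% of all genes, so the count says nothing particular about glia. nrv2 was at 155.8 FPKM and the glutamate transporter gene Eaat1 at 126 (121 to 130), then Nrx-IV at 22.7, Tret1-1 at 7.46, CG6126 at 2.46 and Gs2 at 1.47. The defining glial factor gene repo was listed at 0, as were alrm, wrapper, Mdr65, axo and gcm2, and gcm was at 3.45 FPKM. Of 18 haemocyte genes, 7 were members (38.9%). The ferritin gene Fer1HCH was at 268 FPKM, BM-40-SPARC at 14.3, crq at 12.0, He at 4.29 and LanB1 at 2.52, whereas srp, eater, nimC1, Pxn and lz were listed at 0 and Hml was at 0.0612 FPKM.

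Of 33 genes of other tissues, 4 were members, all under 10 FPKM. They were the cuticle and tracheal genes Gasp at 9.61 FPKM and verm at 1.86, the salivary glue gene Sgs7 at 5.13 on 15 implied reads, and the fat body gene Lsp1gamma at 3.84. The muscle gene Mhc was at 0.0990 FPKM. The 23 listed at 0 were Mlc2, TpnC73F, up and wupA of muscle, Lsp1alpha, Lsp1beta, Lsp2, Fbp2, Sgs3, Sgs4, Sgs5 and Sgs8, the Hox genes lab, pb, Dfd, Scr, Antp, Ubx, abd-A and Abd-B, and btl, serp and vnd. Of 16 optic lobe and disc genes, 14 were members (87.5%, against 49.7% of all genes) with a median of 6.69 FPKM. Optix at 54.1 FPKM, the proneural genes ato at 26.9 and l(1)sc at 19.8, and tll at 17.0 led, sv and so were at 1.72 and 1.71, and vg was listed at 0. Of these, Optix is also given above among the INP factors, and l(1)sc and tll among the neuroblast factors. The count is therefore not particular to optic lobe or disc cells.

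Paralogs differed in how evenly they shared a family's level. Among 24 pairs, chosen with values in view, cytosolic housekeeping forms far exceeded their relatives in several. Ef1alpha48D was 354-fold above Ef1alpha100E (interval 306 to 410). RpS5a was 607-fold above RpS5b (472 to 780), RpS19a was 534-fold above RpS19b (422 to 676), and RpS10b was 1469-fold above RpS10a (926 to 2332), which rested on 18 implied reads. RpL24 was 11.1-fold above RpL24-like, RpL7 was 23.5-fold above RpL7-like, and RpL22-like, RpL10Aa, RpL37b, RpS28a and RpS28-like were listed at 0.

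Other families were shared. RpS14a was 1.79-fold above RpS14b (1.75 to 1.83), whose sequences are near-identical, so the split of reads is uncertain. His3.3A was 1.62-fold above His3.3B (1.59 to 1.65), HmgD was 2.94-fold above HmgZ (2.89 to 2.995), Act5C was 2.32-fold above Act42A (2.27 to 2.38), and 14-3-3epsilon was 2.54-fold above 14-3-3zeta (2.48 to 2.60). Gapdh2 was 1.23-fold above Gapdh1 (1.16 to 1.29). Between tubulins, betaTub56D was 87.8-fold above betaTub60D (82.0 to 94.0) and alphaTub84B was 21.9-fold above alphaTub84D (20.9 to 22.9).

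Subunits that assemble in equal numbers also varied in spread. Over 15 complexes, the highest subunit exceeded the lowest by 1.45-fold in condensin I (1.34 to 1.56), 1.52-fold over the 8 genes of the chaperonin CCT (1.45 to 1.60), 1.71-fold in the proteasome Rpt ring (1.62 to 1.81) and 1.78-fold in the proteasome beta ring (1.71 to 1.85). It exceeded the lowest by 7.20-fold in the clamp loader RFC (6.71 to 7.73), 6.77-fold in succinate dehydrogenase (6.33 to 7.24) and 6.61-fold in the origin recognition complex (5.89 to 7.41), of which lat was left out for its status. In the clamp loader the small subunit gene RfC4 was at 190 FPKM and the large subunit gene Gnf1 at 26.37. Their implied reads were 2845 and 1033. Implied reads of highest and lowest were 2355 and 1351 in succinate dehydrogenase and 878 and 441 in the origin recognition complex. SdhC and SdhA have median annotated transcripts of 781 and 2663 bases, and the part of transcript length in these spreads was not tested. The 9 genes of ATP synthase spread 6.31-fold (6.12 to 6.496), from 239 FPKM for blw to 1506 for CG1746. Its c ring holds many copies of CG1746, so these subunits do not assemble in equal numbers. The part of copy number in this spread was not tested.

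**Figure D5:**
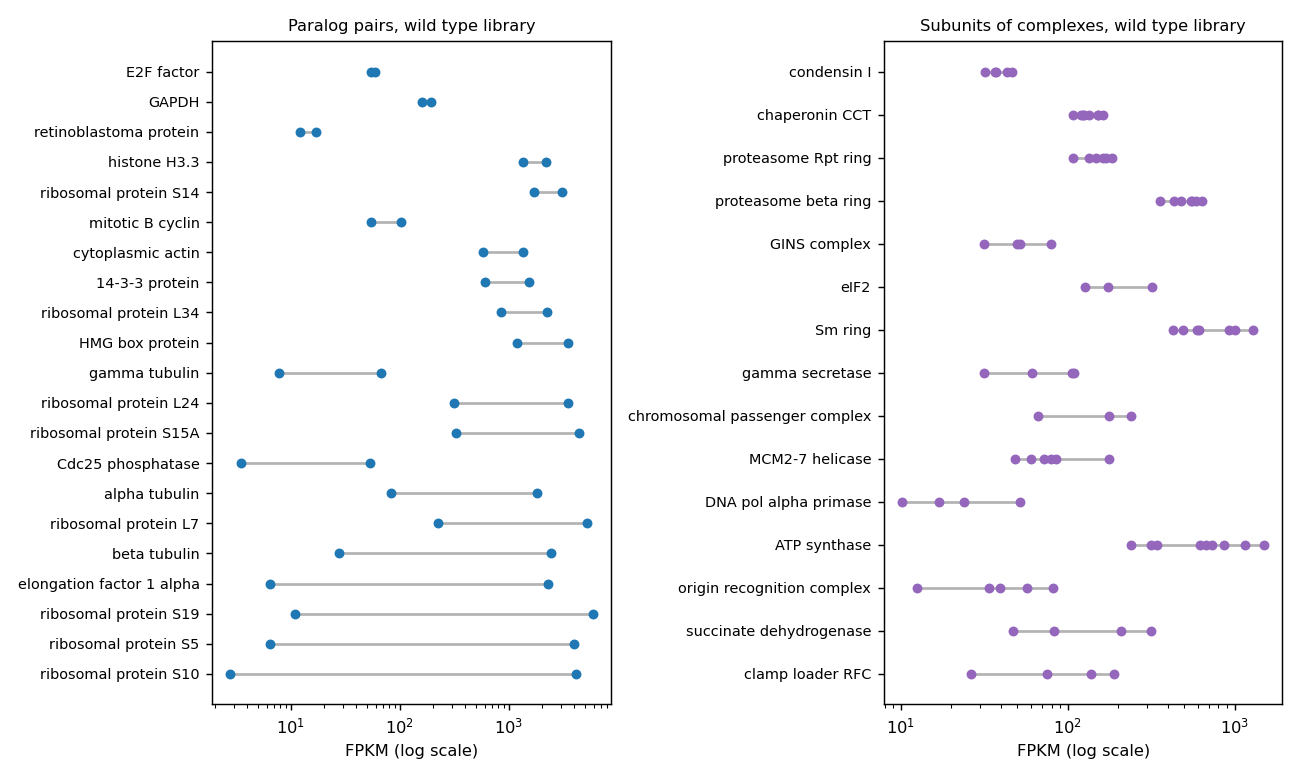
FPKM (x axes, log scale) of the members of paralog pairs (left) and of complexes (right) in the wild type library, 1 point per gene with a line across each family, ordered by fold. Pairs with a gene listed at 0 are left out; condensin I and the chaperonin span under 2-fold, and RpS10b and RpS10a span 1469-fold.

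By chromosome, the median member stood at 16.3 FPKM on 2L, 16.8 on 2R, 17.0 on 3L and 17.4 on 3R, at 14.02 on X and at 27.996 on the small chromosome 4. Of the 85 genes of chromosome 4, 61 were members (71.8%), and of 2210 genes on X, 1206 were members (54.6%), against 49.7% of all genes. No gene of the 7 on YHet was a member, and none of the 85 on U. Both sequences had 0 implied reads, as had the mitochondrial genome, and whether they were counted was not tested. The YHet zero was therefore not used to tell sex, and the labels used here do not state the sex of the larvae.

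Among single genes, Dcr-2, whose product makes small interfering RNAs, was at 451 FPKM (rank 248), while its partner AGO2 was at 37.5 FPKM. The eye pigment transporter gene w, a common transgene marker, was at 47.2 FPKM. These 3 genes were chosen after their values were seen, and the loci of all of them overlap another gene.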

How the data were processed

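The authors deposited an FPKM value with a lower and an upper bound and a status for each gene of the wild type library, per the file headers. PolyA RNA was selected from Trizol-isolated RNA and stranded by a dUTP method, per the labels' protocols. Tools named in the submitters' processing notes, with no role given, were Cufflinks 1.3.0, TopHat 1.4.1, BWA 0.6.1, DESeq 1.8.3 and HTSeq. Build, annotation and strand setting of the counting: not given in the sources used here. Of 13575 gene identifiers also in BDGP6, 1471 had the same start once 1 was added to the file's start, so starts are given with 1 added and were not joined to that build. Loci of 2970 members overlap another gene, and their levels are uncertain.

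Bounds lay at FPKM ± 2 × FPKM/√n. The value n was whole within 0.02 for 93.6% of 839 genes with 1 transcript and under 50 reads, and was used as implied reads, 10114559 in all. Members from 1 to 2 FPKM had a median of 30 implied reads and a half-width of 36.5% of the level, and those of at least 1000 FPKM had 33893 reads and 1.09%. Reads are PCR products without molecular identifiers, so bounds and fold intervals (95%, from reads of both genes) cover counting error only. Of genes at 1 FPKM or more, 16 lacked the status OK.

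Members were counted in 29 gene lists of 825 distinct genes, and each count is to be read beside the 49.7% of all genes. Members, lists, pairs and complexes were chosen with earlier results of these data known, and after the table was seen list symbols were matched to its older symbols, wrong entries were dropped and 5 genes were added. Named genes were the 30 highest, all neuroblast and INP factors, and of each other list the 4 highest, the 2 lowest and those listed at 0; others are examples, and a few genes named by this rule are not reported here. Current symbols came by identifier for 6731 members. No test was made. The interval calculation was checked on simulated counts, with bounds built by the same formula. That check cannot show that the deposited bounds of all genes follow the formula. Python 3.11.15, pandas 2.3.3, numpy 2.4.6, scipy 1.17.1 and matplotlib 3.10.9 were used. The osa RNAi table and the table of genotype differences were not used here, nor were promoter sequences.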

Additional observations from a re-analysis of the deposited data

How the results depend on the processing

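The number of genes at the threshold was 7471 with a minimum of 0.5 FPKM, 5631 with 5 FPKM, 7083 with any status and 7002 without loci under 500 bp, within 1.5 times the 7067 reported. Leaving out overlapping loci gave 4097 genes, since fewer genes were counted. The share of the 10 most abundant genes, 16.6%, was 16.65% with 5 FPKM, 18.8% without overlapping loci, 14.9% without loci under 500 bp and 9.62% by implied reads. The share of ribosomal proteins, 47.6%, was 47.8% with 5 FPKM, 47.53% with any status, 48.7% without overlapping loci, 49.9% without loci under 500 bp and 31.5% by implied reads. The list medians, as percentiles among members, moved outside the order-statistic interval of the median over their members in 2 of 26 lists with 5 FPKM, 1 of 25 without overlapping loci and 3 of 28 by implied reads, and in none of 28 in the other alternatives. Some medians moved by over 1.5 times while inside that interval. By implied reads, ribosomal protein paralogs stood at percentile 13.8 in place of 38.8, glia at 36.9 in place of 22.3, haemocyte genes at 32.2 in place of 17.7 and surface genes at 69.4 in place of 43.9, and with 5 FPKM glia stood at 48.5. The largest shifts among the lists outside it were by implied reads, asymmetric division at 85.7 in place of 71.2 and mitosis at 85.1 in place of 72.3. No paired analysis was possible because there was 1 library. Levels rest on 1 library, and depth limits those near 1 FPKM.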
